A study of Mus musculus with 15 samples.

Results

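Mouse Apoe and 7 of its neighbours on chromosome 7, Apoc1, Apoc2, Apoc4, Tomm40, Clptm1, Bcam and Relb, were followed across bulk RNA sequencing libraries of mouse thalamus. These 8 genes of the 29659 in the deposited expression table were chosen by position around Apoe, and the locus itself was chosen by a measured value, the level of mouse Apoe in 1 library labelled ELKO (replicate 1). The Apoe level in that library is therefore given as a description, with no test. In that library mouse Apoe stood at 10.90 on the deposited log2 scale, against 5.92 to 6.37 in the other 14 libraries, whereas none of the 7 neighbours was at its highest there. Apoc1, the nearest neighbour, was at its lowest of the 15 libraries in the same sample, by a small margin. Over the 15804 genes that passed a filter on low values, 6.25% were highest and 6.21% lowest in that library. Apoc2 and Apoc4 lay near the floor of the scale and were not among those genes.

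All mice were 4.5 months old. By the study's description of its strains, every group has human APOE4 on both copies of the mouse Apoe locus (APOE4+/+). APOE4 is a variant of the apolipoprotein E gene that raises the risk of Alzheimer's disease. The genotype of single animals, that of ELKO replicate 1 included, was not checked here. The EL group (n = 3) carried APOE4+/+ with intact Lilrb4a, and the ELKO group (n = 3) was APOE4+/+/Lilrb4a-/-. The 5EL group (n = 5, 5xFAD/APOE4+/+/Lilrb4a+/+) and the 5ELKO group (n = 4, 5xFAD/APOE4+/+/Lilrb4a-/-) carried in addition the 5xFAD transgenes, which are driven by the neuronal Thy1 promoter and give early amyloid plaques. Lilrb4a encodes an inhibitory receptor of microglia and other myeloid cells, and the study asked what its loss does in amyloid-bearing mice with human APOE4. Which mouse Apoe exons the knock-in allele keeps is not given in the sources used here, and human APOE was not analysed here.

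Apolipoprotein E is the main lipid carrier of the brain, made largely by astrocytes and, in disease, by microglia. The lipid transporter Abca1 loads it with cholesterol and phospholipid, and the particles are taken up by cells through lipoprotein receptors such as Lrp1. Apoe lies in a cluster with the smaller apolipoproteins Apoc1, Apoc4 and Apoc2, next to Tomm40, the channel of the mitochondrial outer membrane through which proteins are imported. In bulk tissue, fewer cells of a type and less RNA per cell cannot be told apart.

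In GENCODE M21 (build GRCm38) all 8 genes lie on the minus strand. Apoe spans chr7:19696109-19699188. Apoc1 (chr7:19689481-19692660), Apoc4 (chr7:19678083-19681479), Apoc2 (chr7:19671579-19677941), Clptm1 (chr7:19631571-19665033) and Relb (chr7:19606217-19629438) lie downstream of it, with start sites at -6.5 (Apoc1) to -69.8 kb (Relb) relative to that of Apoe. Tomm40 (chr7:19701313-19715438) and Bcam (chr7:19756131-19771016) lie upstream, with start sites 16.2 and 71.8 kb from that of Apoe. None of the 2256 windows of 36 bases in the Apoe transcripts, nor of the 766 in Apoc1 or the 6309 in Clptm1, occurred in a transcript of another gene. Of the windows of Apoc2, 78.7% were shared, as 79.5% of its exonic bases overlap the readthrough gene Gm44805. Gm44805 is not in the deposited table, so whether the overlap touched the Apoc2 counts is not known. The shares of windows found in other genes were 11.6% for Apoc4, 5.64% for Tomm40, 1.25% for Relb and 0.564% for Bcam. Tomm40 (5.72%) and Bcam (1.63%) share small parts of their exonic bases with antisense genes, and the counting ignored strand.

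Exon 3 of the transcript Apoe-201 (chr7:19697479-19697647, minus strand) is printed because it is 169 bases of mouse coding sequence inside the gene whose row stands apart. The RefSeq promoters of Apoe (chr7:19699139-19699438) and Tomm40 (chr7:19715380-19715679), both of the minus strand and build GRCm38.p6, are printed as those of the gene that was high in 1 library and of its upstream neighbour that was not. Each runs from 250 bases before to 50 bases after the start, 5′ to 3′, with every GGGCGG on either strand in capitals.
Apoe exon 3: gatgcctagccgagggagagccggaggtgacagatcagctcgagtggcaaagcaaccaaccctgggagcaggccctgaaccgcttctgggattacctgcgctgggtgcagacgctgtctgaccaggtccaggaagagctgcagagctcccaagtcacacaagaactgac
Apoe promoter: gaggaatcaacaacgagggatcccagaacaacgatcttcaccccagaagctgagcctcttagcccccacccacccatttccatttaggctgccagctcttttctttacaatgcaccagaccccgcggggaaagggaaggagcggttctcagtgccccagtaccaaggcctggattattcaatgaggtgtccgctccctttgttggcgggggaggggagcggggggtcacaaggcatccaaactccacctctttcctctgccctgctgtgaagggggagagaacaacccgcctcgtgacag
Tomm40 promoter: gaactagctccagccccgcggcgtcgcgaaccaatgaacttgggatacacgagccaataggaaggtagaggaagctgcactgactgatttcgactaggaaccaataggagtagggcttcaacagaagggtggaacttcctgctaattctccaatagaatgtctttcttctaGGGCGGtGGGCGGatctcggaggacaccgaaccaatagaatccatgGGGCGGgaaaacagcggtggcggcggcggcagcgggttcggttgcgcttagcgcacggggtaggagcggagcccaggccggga
The Apoe window held no GGGCGG, the core of a GC box, and 57.7% G or C, whereas the Tomm40 window held 3 matches and 58.0% G or C. Among all 32851 RefSeq promoter windows 35.7% held at least 1 match. Of the 6 members with an entry, Clptm1 held 3 matches, Bcam and Apoc4 held 1 each, and Apoc2 held none. A match in letters is a description and not a binding site.

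The deposited table holds log2 values, 29659 per library, with library medians between 3.96 and 4.01 and Pearson correlations between libraries of 0.9986 or more. It holds no counts, so the number of reads behind a value is unknown. Low genes are drawn towards a gene-specific floor, so a difference understates the change of a low gene. No pair of the 105 library pairs held identical values. EL replicate 3 stood apart, being highest for 21.2% and lowest for 23.9% of the 15804 genes tested, against at most 8.25% and 8.26% in any other library. Thalamic neuron markers were high in every library, with Tcf7l2, a transcription factor of thalamic neurons, between 12.76 and 13.19. Lilrb4a lay between 2.326 and 2.331 in all 7 libraries labelled as its deletion, with 2.326 in ELKO replicate 1, and between 2.345 and 2.662 in the other 8.

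Apoe was the member that separated 1 library from all others. Its level was 5.93, 6.04, 6.06, 6.37 and 6.15 in the 5EL libraries and 6.24, 6.11, 6.21 and 6.32 in the 5ELKO libraries. The EL libraries stood at 5.92, 6.10 and 6.33, and the ELKO libraries at 10.90, 6.05 and 5.95. The 14 libraries other than ELKO replicate 1 spanned 0.45 in all. The 5EL, 5ELKO and EL libraries overlapped in range, and the remaining ELKO libraries lay inside the ranges of 5EL and EL and below every 5ELKO library. Group means were 6.11 ± 0.166 in 5EL (SD, n = 5), 6.22 ± 0.0869 in 5ELKO (SD, n = 4), 6.12 ± 0.206 in EL (SD, n = 3) and 7.63 ± 2.83 in ELKO (SD, n = 3). Without replicate 1 the ELKO mean was 5.996 ± 0.0702 (SD, n = 2), which made ELKO the lowest group in place of the highest. From the highest group mean to the lowest the order was then 5ELKO, EL, 5EL and ELKO. Groups next to each other in it overlapped, while 5ELKO (6.11 to 6.32) and the 2 remaining ELKO libraries (5.95 and 6.05) did not. This separation of 4 libraries from 2 is a description with no test, and no share over all genes is given beside it.

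**Figure D1:**
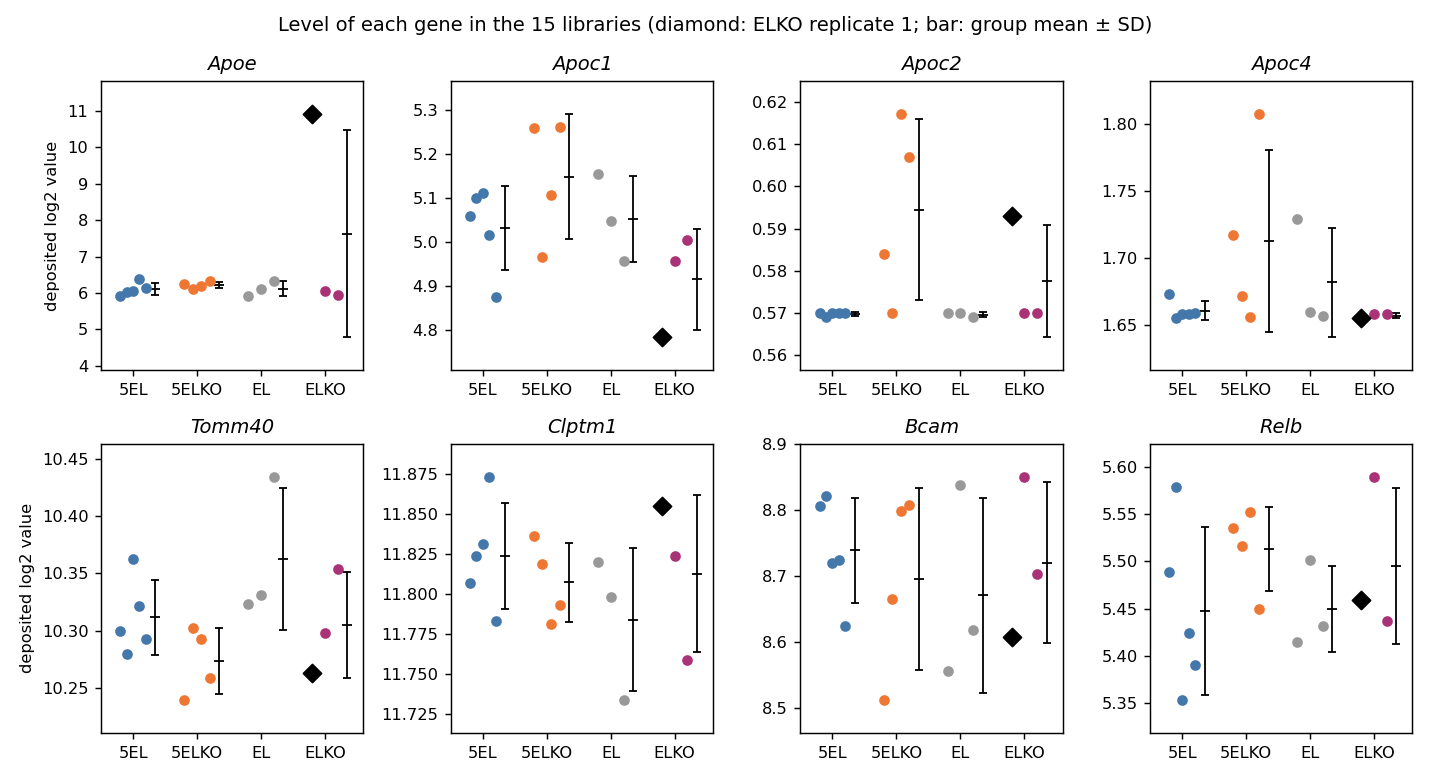
Deposited log2 value (y axis, a separate scale for each gene) of Apoe and its 7 neighbours in the 15 libraries, by genotype (x axis), with points for libraries, a diamond for ELKO replicate 1 and bars for the group mean ± SD. The Apoe diamond sits at 10.90, and the 14 other libraries lie between 5.92 and 6.37.

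ELKO replicate 1 exceeded the mean of the other 14 libraries by 4.77 on the log2 scale for Apoe, a 27.3-fold ratio on the deposited scale and 31.9 times the SD of those 14 libraries. The next highest library, 5EL replicate 4, stood 4.53 lower. Against the mean of the 2 other ELKO libraries, which share its genotype label, the difference was 4.90. Within the 14 remaining libraries Apoe varied somewhat more than genes of its level: its SD was 0.15, against a median of 0.113 over 684 genes within 0.25 of its mean, 75.0% of which had a smaller SD.

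No other gene in this library stood so far from the rest. The largest upward gap of any gene in any of the 14 other libraries was 1.49, for the haemoglobin gene Hba-a1 in EL replicate 3, and in the other 13 libraries the largest gap ran from 0.21 (B2m in 5ELKO replicate 4) to 0.95 (Ttr in ELKO replicate 2). With Apoe set aside, the largest upward gap in ELKO replicate 1 was 0.28, for the growth hormone gene Gh, which was 6.97 there and 4.76 to 6.69 elsewhere. Epha6 followed with a gap of 0.18. ELKO replicate 1 was above the other 14 libraries for 987 genes, 6.25% of those tested, and below them for 982 genes, 6.21%, where an even spread over 15 libraries gives 6.67%.

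**Figure D2:**
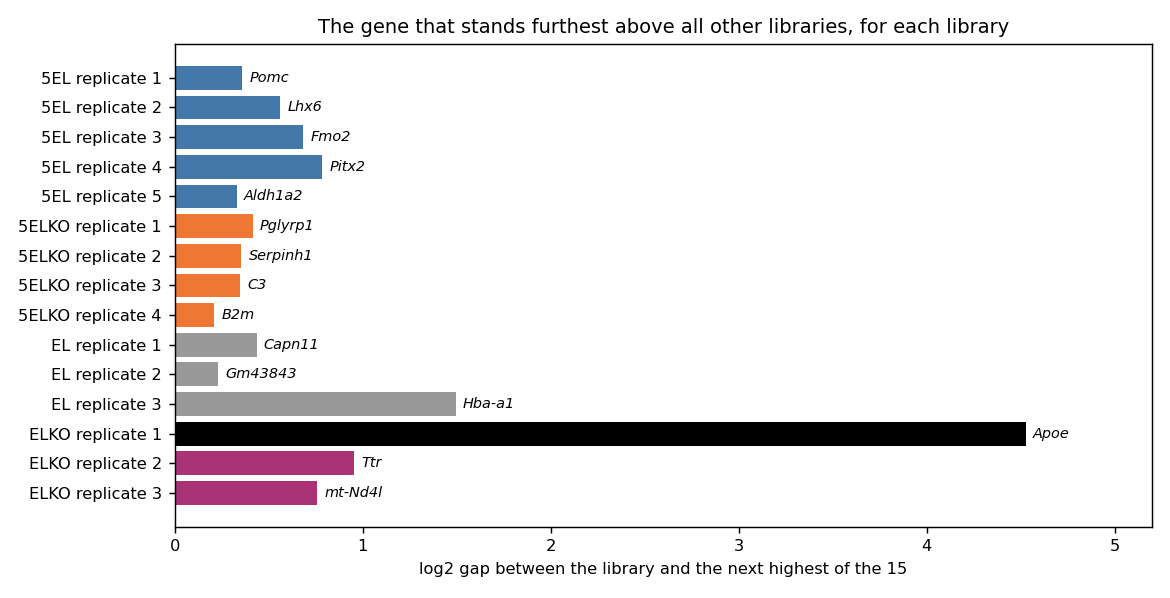
For each library (y axis), the gene that stood furthest above the next highest of the 15 libraries, as a log2 gap (x axis), with the gene's name beside its marker. ELKO replicate 1 has Apoe at 4.53, and the other 14 libraries lie between 0.21 and 1.49.

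The neighbours did not share the high Apoe level. Of the 7, 0 were highest and 1 was lowest in ELKO replicate 1, beside 6.25% and 6.21% over all genes tested, and the same held with EL replicate 3 left out. These 7 genes share 1 library, so the counts describe that library. In the next paragraphs they are taken by role, first the apolipoproteins and then the genes of other function.

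Apoc1, a small apolipoprotein that inhibits lipoprotein lipase, was 4.78 in ELKO replicate 1. Its other levels were 4.96 and 5.00 in ELKO, 5.15, 5.05 and 4.96 in EL, 5.06, 5.10, 5.11, 5.02 and 4.88 in 5EL, and 5.26, 4.97, 5.11 and 5.26 in 5ELKO. The library with the highest Apoe thus had the lowest Apoc1, lying 0.28 below the mean of the other 14, or -2.47 of their SDs, and 0.09 below the next lowest library, 5EL replicate 5. Apoc2, the activator of lipoprotein lipase, stayed at the floor of the scale, from 0.57 to 0.62 in all libraries, with 0.59 in ELKO replicate 1. Apoc4, another small apolipoprotein, had 1.655 in ELKO replicate 1, with 1.655 to 1.807 elsewhere. Neither passed the filter on low values, so 6 of the 8 members and 5 of the 7 neighbours were tested.

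Tomm40 was 10.26 in ELKO replicate 1, 10.30 and 10.35 in the other ELKO libraries, and 10.24 to 10.43 over the 14 others, with a median of 10.30. Its difference from their mean was -0.05, or -1.05 SDs, and it ranked 13 of 15 from the top. Clptm1, a membrane protein that holds back GABA-A receptors inside the cell, was 11.86 in ELKO replicate 1, where it ranked 2, and 11.73 to 11.87 elsewhere. Its difference of 0.05 amounted to 1.41 SDs and left it inside the range of the others.

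Bcam, a laminin-binding adhesion molecule, had a level of 8.61 in ELKO replicate 1, inside the 8.51 to 8.85 of the rest, and lay -0.11 from their mean. Relb, a subunit of the transcription factor NF-κB, was 5.46 there and 5.35 to 5.59 elsewhere, a difference of -0.02 that placed it in the middle of the ranking at 8. All 4 of these genes lay inside the range of the other 14 libraries.

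The wider neighbourhood was read in the same way. GENCODE lists 71 genes, Apoe included, that lie wholly within 500 kb of either end of Apoe, of which 50 were in the table, and 28 besides Apoe were tested. Of the 28, 0 were above and 2 were below all other libraries in ELKO replicate 1, that is 7.14% below, beside 6.25% above and 6.21% below over all genes. The 2 were Apoc1 and Bcl3, a cofactor of NF-κB, whose difference from the mean of the others was -0.12. Differences over the 28 ran from -0.28 to 0.20 with a median of -0.03, beside a median of -0.0014 over all genes. The highest, 0.20, belonged to Nectin2 (listed as Pvrl2), a cell adhesion molecule whose start site lies 51.3 kb upstream, and it stayed within the range of the other libraries.

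**Figure D3:**
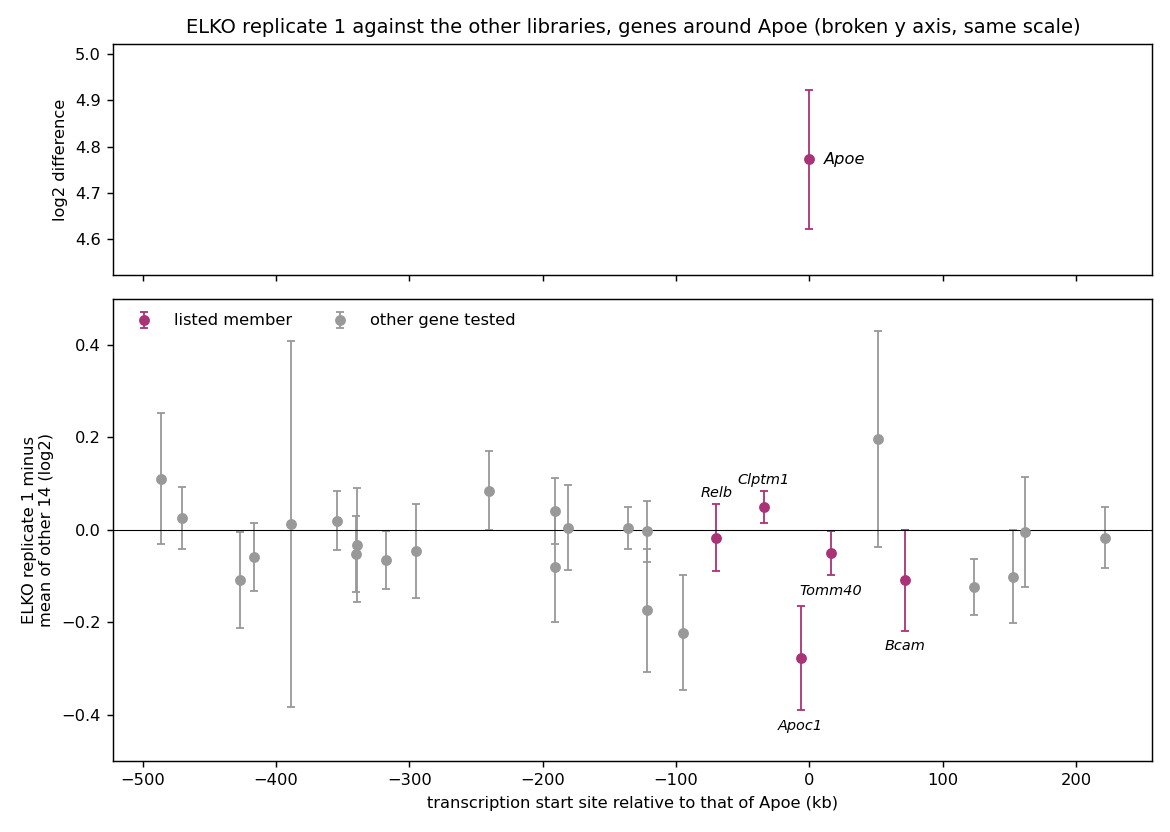
Difference between ELKO replicate 1 and the mean of the other 14 libraries (y axis, log2, broken between panels that share 1 scale) against the distance of each gene's start site from that of Apoe (x axis, kb), with bars for the SD of the other 14 libraries. Apoe lies at 4.77 and the 28 other tested genes between -0.28 and 0.20.

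Genes with a pattern like that of Apoe were sought by Pearson correlation over the 15 libraries, which is given as a description because 1 of the points lies far from the rest. The highest values were 0.828 for Gm12033, 0.789 for Rab43, a small GTPase, 0.757 for Gm24993, 0.71 for Zbtb39 and 0.696 for Topbp1, a DNA damage response protein. Over the 14 libraries without ELKO replicate 1 these became 0.143, 0.556, 0.298, 0.117 and 0.573. The gaps of these 5 genes above the other libraries were 0.06 to 0.14, so none came near the Apoe gap. Among the neighbours the correlation over 15 libraries was -0.538 for Apoc1, -0.268 for Tomm40, 0.352 for Clptm1, -0.27 for Bcam and -0.073 for Relb. Over 14 libraries it lay between -0.114 (Bcam) and 0.101 (Apoc1).

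Genes far below the others in ELKO replicate 1 were led by Fabp7, the brain fatty acid-binding protein of astrocytes and radial glia, at 8.50 against 8.85 to 9.48, a gap of -0.35. Gng11, a G protein subunit, followed with a gap of -0.31, and Ddx49, Arhgef19 and Slc41a3 had gaps between -0.22 and -0.20. Each of these gaps was small beside the 4.53 of Apoe.

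Markers of cell types that make Apoe, or that a dissection could carry along, were set beside this library. Each list is given as the mean log2 value over its tested genes. The 11 astrocyte markers averaged 11.88 in ELKO replicate 1 and 11.69 to 12.09 in the others, and the 10 microglia markers averaged 8.73 against 8.67 to 9.14. Both means lay inside the range of the other libraries. Whether these cell types have a part in the Apoe level of ELKO replicate 1 was not tested. By group, the astrocyte mean ran from 11.85 to 11.99 in 5EL, 11.83 to 12.09 in 5ELKO, 11.69 to 11.87 in EL and 11.76 to 11.93 in ELKO. The microglia mean ran from 8.79 to 9.05, 8.68 to 9.14, 8.68 to 8.83 and 8.67 to 8.86 in the same order. Over the 14 other libraries, which share the tissue and the protocol, the correlation with Apoe was 0.299 for the astrocyte list and 0.468 for the microglia list. Single markers ran from -0.323 (Slc1a3) to 0.418 (Aldoc) for astrocytes and from -0.172 (Tmem119) to 0.55 (C1qc) for microglia. Among the marker lists described below, the endothelial one had 0.525 and the choroid plexus one -0.4. The border macrophage, hepatocyte and thalamic neuron lists had -0.059, -0.005 and 0.13.

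Liver is the main source of Apoe outside the brain. In ELKO replicate 1 the 12 hepatocyte markers averaged 4.19, by a small margin the lowest of the 15 libraries (4.22 to 4.95 in the others). Of the 12, 8 were at their lowest there, beside 6.21% of all genes tested. Alb, the gene of serum albumin, was 5.69, against 5.75 to 8.59 elsewhere. Whether liver RNA has a part in the Apoe level was not tested. By group the hepatocyte mean ran from 4.22 to 4.36 in 5EL, 4.47 to 4.93 in 5ELKO, 4.23 to 4.95 in EL and 4.19 to 4.30 in ELKO. The markers Apoa1, Apoa2 and Apoh are also in the apolipoprotein list below. The mean of the 8 endothelial markers was also lowest in ELKO replicate 1, at 9.24 against 9.27 to 9.53. Of these 8, 1 was itself at its lowest there, Pecam1.

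The 5 tested markers of border macrophages averaged 5.15 in ELKO replicate 1, the second highest value, inside a range of 4.81 to 5.28, and 1 of them, Cd163, was at its highest there. The choroid plexus mean was 6.04, inside a range of 5.62 to 8.37 that 5EL and ELKO libraries set at its upper end (up to 7.99 in 5EL and 8.37 in ELKO). The 9 thalamic neuron markers averaged 12.30, inside 12.04 to 12.71, and none was at its highest or lowest.

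**Figure D4:**
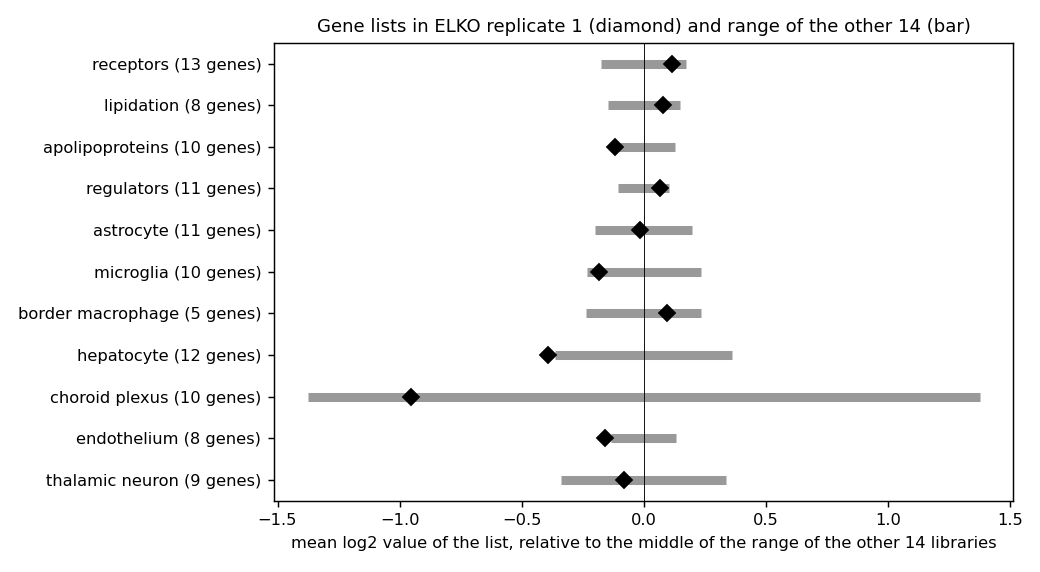
Mean log2 value of each gene list (y axis) relative to the middle of the range of the other 14 libraries (x axis), with a diamond for ELKO replicate 1 and a bar for the range of the other 14. The diamond leaves the bar for the hepatocyte and endothelium lists, in both at the low end, and lies inside it for the 9 other lists.

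The genes that load, carry, take up and regulate lipoproteins were compared as a list of 47, of which 46 were in the table and 42 were tested. In ELKO replicate 1, 3 of the 42 were highest and 3 lowest, near the 6.25% and 6.21% of all genes. The 3 highest were Abca1 at 10.77 (10.01 to 10.70 elsewhere), the sterol transporter Abcg4 at 10.65 (10.36 to 10.64) and the nuclear receptor Rxra at 9.69 (9.05 to 9.65). The 3 lowest were Apob, Apoh and Apoo. The receptors averaged 9.39 (9.10 to 9.45 in the others), and Vldlr and Lrp1, which take up apolipoprotein E, were inside the range of the others or level with its top.

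The genotype comparisons were then made for the members, using limma on the log2 values with Benjamini-Hochberg adjustment over all tested genes. For 5ELKO against 5EL, the comparison of Lilrb4a deletion in amyloid-bearing mice, 0 of 6 tested members passed an adjusted p of 0.05, beside 0.0191% of 15743 genes, and 0 passed a nominal p of 0.05, beside 2.49%. ELKO replicate 1 is in neither group. Apoe was 0.10 higher in 5ELKO (SE 0.0826, 95% interval -0.07 to 0.28, limma adjusted p = 0.999). The 4 5ELKO libraries (6.11 to 6.32) lay inside the span of the 5 5EL libraries (5.93 to 6.37), and an exact two-sided permutation test gave p = 0.286. Without 5EL replicate 4, the highest of its group, the difference was 0.17, past the nominal threshold but not after adjustment (limma adjusted p = 1).

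Apoc1 was 0.12 higher in 5ELKO than in 5EL (limma, 95% interval -0.04 to 0.27, adjusted p = 0.999). In 2 of the 4 5ELKO libraries it exceeded every 5EL library. Without 5ELKO replicate 2, the lowest of its group, the difference was 0.18, past the nominal threshold but not after adjustment (limma adjusted p = 1). The intervals of the other members were -0.12 to 0.04 for Tomm40, -0.10 to 0.06 for Clptm1, -0.19 to 0.10 for Bcam and -0.05 to 0.19 for Relb.

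For 5EL against EL, the comparison of the 5xFAD transgenes with Lilrb4a intact, 0 of 6 members passed the adjusted or the nominal threshold, beside 0% and 7.7% of 15804 genes. Apoe differed by -0.01 (95% interval -0.22 to 0.21, limma adjusted p = 0.978) in a fit that left out ELKO replicate 1. The neighbours differed by between -0.05 (Tomm40) and 0.07 (Bcam), with limma adjusted p from 0.687 to 0.989.

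The comparisons with ELKO hold the library that chose the locus, so Apoe is given there as a value alone. Its difference was 1.51 for ELKO against EL and -1.41 for 5ELKO against ELKO, and without ELKO replicate 1 these became -0.13 and 0.22, turning the direction of both. The interaction value, the effect of Lilrb4a deletion with 5xFAD minus that without, went from -1.40 to 0.23. For the 5 neighbours, ELKO against EL gave 0 past the adjusted and 0 past the nominal threshold, beside 0% and 2.35% of genes, with differences from -0.14 (Apoc1) to 0.05 (Bcam and Relb).

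Apoc1 was the 1 neighbour of 5 past a nominal threshold in the remaining comparisons, and none passed after adjustment. It was 0.23 higher in 5ELKO than in ELKO (SE 0.0818, 95% interval 0.06 to 0.41, limma adjusted p = 0.999), where 0% of genes passed the adjusted threshold and 2.37% the nominal one. Without ELKO replicate 1 the difference was 0.17 (limma adjusted p = 0.793), no longer past the nominal threshold. Its interaction value was 0.25 (SE 0.113, limma adjusted p = 1), where 0% and 2.73% of genes passed. It was 0.19 without ELKO replicate 1 and 0.21 with the replicate number as a block, in both cases no longer past the nominal threshold. The same was so without 5EL replicates 4 or 5, 5ELKO replicates 1 or 4, or EL replicates 1 or 2, each left out alone. Tomm40, Clptm1, Bcam and Relb had differences between -0.03 and 0.02 for 5ELKO against ELKO.

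**Figure D5:**
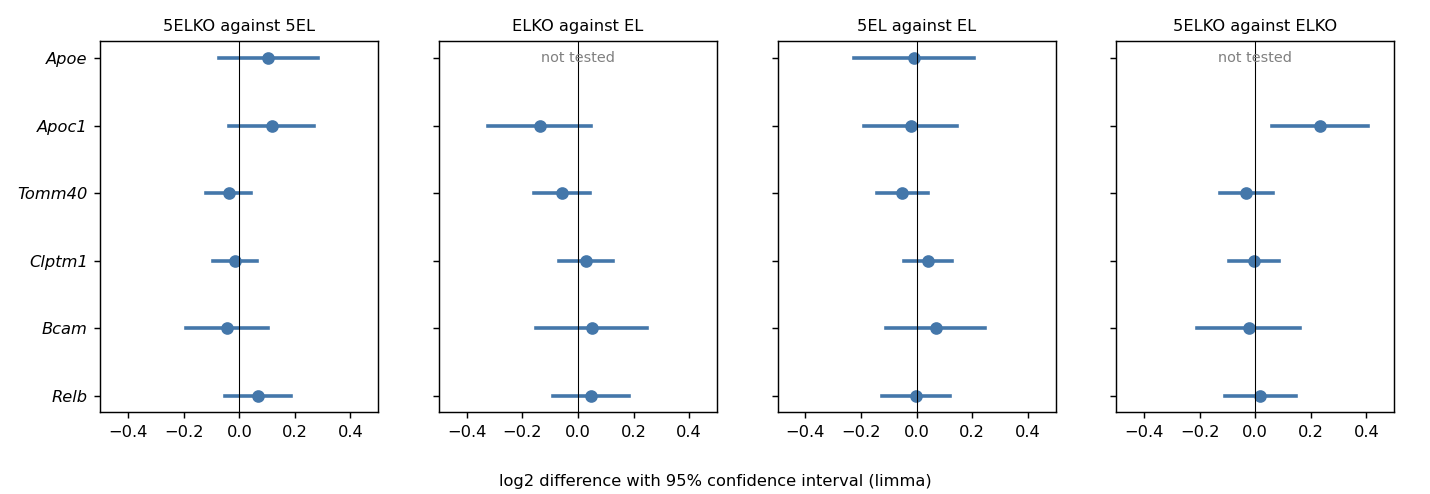
Log2 difference (x axis) with its 95% confidence interval for Apoe and the 5 tested neighbours (y axis) in the 4 genotype comparisons, by limma, with Apoe marked as not tested where the ELKO group enters. The intervals include 0 for each gene shown except Apoc1 in 5ELKO against ELKO, which spans 0.06 to 0.41.

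In the lipoprotein list no gene passed after adjustment, with 0 of the 42 in each of the 5 comparisons, and at a nominal limma p of 0.05 the list had 5 genes for 5ELKO against 5EL, 0 for ELKO against EL, 8 for 5EL against EL, 6 for 5ELKO against ELKO and 5 for the interaction. Those are 11.9%, 0%, 19%, 14.3% and 11.9% of the list, beside 2.49%, 2.35%, 7.7%, 2.37% and 2.73% of all genes tested. For 5ELKO against 5EL, 4 of these 5 were higher, all apolipoproteins that liver makes: Apoa1 (0.37), the main protein of high-density lipoprotein, Apoa2 (0.27), Apob (0.23), the protein of low-density lipoprotein, and Apoc3 (0.19). Nr1h2, a nuclear receptor for oxysterols, was lower (-0.11). The hepatocyte marker mean was 4.22 to 4.36 in 5EL and 4.47 to 4.93 in 5ELKO, and its part in these values was not tested.

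For 5EL against EL, 7 of the 42 were nominally higher and 1 lower. Abca1 was 0.43 higher (limma adjusted p = 0.63), Lpl, the lipase that releases fatty acids from lipoproteins, 0.45, Clu, an abundant apolipoprotein of brain, 0.21, and Trem2, a microglial receptor for lipoproteins and lipids, 0.46. The others higher were Rxrg (0.35), Rxra (0.24) and Lrp10 (0.18), and the lower gene was Apoo (-0.24). Without EL replicate 3 the counts were 4 higher and 0 lower, and over all genes the nominal share went from 7.7% to 2.25%. For 5ELKO against ELKO, Trem2 was 0.58 higher and Apoc3 0.23 higher, both past the nominal threshold only, and without ELKO replicate 1 the list had 5 genes in place of 6 while the share over all genes went from 2.37% to 5%. Without EL replicate 3 the list had 8 genes, beside 2.89% of all genes. The median difference of the list was 0.03, -0.003, 0.03, 0.04 and 0.01 in the 5 comparisons, in the order given above, beside medians within 0.0033 of 0 over all genes.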

How the data were processed

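Total RNA of thalamus from 15 mice was sequenced. According to the study's methods and processing notes, the authors trimmed reads with Trimmomatic 0.39 (15 bases cut from read starts, minimum length 36 bases), checked them with FastQC 0.11.9, aligned them to GRCm38 with HISAT2 2.2.1, sorted alignments with SAMtools 1.16.1, counted read pairs per gene over exons without regard to strand with featureCounts 2.0.3, and used DESeq2 1.38.3. The values deposited by the authors are log2 expression values, 29659 per library. The transform is not given in the sources used here.

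The log2 values were analysed as deposited with limma 3.58.1 in R 4.3.3 (lmFit, eBayes with trend, Benjamini-Hochberg adjustment). 5ELKO against 5EL was fitted on those 9 libraries, with genes at 3.32 (log2 of 10) or more in at least 4. The other comparisons were fitted on all 15, with at least 3 libraries past that floor. Apoe was left without a test wherever ELKO entered, and the fit of Apoe for 5EL against EL dropped ELKO replicate 1. Single members were also compared by exact permutation tests in SciPy 1.17.1. A difference in ELKO replicate 1 is its value minus the mean of the other 14. The members and lists were chosen with earlier results of these data known. Genes named beyond the members and lists are, by rule, the 5 with the highest correlation with Apoe and the 5 furthest above and below in ELKO replicate 1, and the extreme gene of each library where a range is given.

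Deviations from the group means correlated between EL and ELKO libraries of the same number (0.453, 0.325 and 0.742). Those of 5EL and 5ELKO did not (-0.244 to 0.143). Libraries of different number were not compared in this way, so these values cannot tell whether EL and ELKO libraries are paired. What a number shares is not given in the sources used here. The reported fits were unpaired, and the replicate number entered as a block only in an alternative. With that block, 0 neighbours passed the nominal threshold for ELKO against EL or for the interaction. P-values measure the spread between these samples. On simulated data 200 genes were shifted by 4 SDs. The fits recovered 78.5% of them for 5ELKO against 5EL among 15743 genes and 22.5% for the interaction among 15802. Of the genes called, 2.48% and 10% were false, in that order. The simulated libraries were independent, so the correlation between EL and ELKO libraries of the same number was left out. Alternatives tried were other filters, recentred values, the replicate block, fits on all libraries and leaving out each library.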

Additional observations from a re-analysis of the deposited data

Results flagged for a closer look

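Not every group and gene pair was checked for a library far from its group. Apoe in the ELKO group, with replicate 1 described above, was not among the 16 pairs checked. Of these 16, 1 stood out: Apoc4 in 5EL replicate 1, whose gap to the nearest other 5EL library was 0.764 of the group's whole range. Its level was 1.673, against 1.655 to 1.659 in the other 4 libraries, so the gap lies at the floor of the log2 scale. Chance flags about 1 in 20 such groups.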

How the results depend on the processing

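Of 124 alternative values of the reported counts and differences, 123 kept the count, or the direction and side of the threshold, reported. The other was Apoe for 5ELKO against 5EL, whose difference of 0.10 ranged from 0.0593 to 0.1701 when each library was left out in turn and passed a nominal p of 0.05 without 5EL replicate 4 (0.17, limma adjusted p = 1). That library has the highest Apoe of its group. With the replicate block, the Apoe difference was 0.11, not past the nominal threshold. The number of members called after adjustment was 0 in each of the 5 comparisons and in every alternative run, the replicate block included. The block could not be fitted for 5EL against EL and 5ELKO against ELKO. Among 515 differences of single tested members in these alternatives, 27 turned direction, each of them 0.05 or less in size as reported. At a nominal limma p of 0.05, 2 were gained (Apoe as above, and Apoc1 for 5ELKO against 5EL without 5ELKO replicate 2) and 9 were lost, all of them Apoc1 (8 for the interaction, 1 for 5ELKO against ELKO). The one further nominal call without the filter on low values was Apoc2 for 5ELKO against 5EL (0.02), a gene at the floor of the scale. Leaving out EL replicate 3, and recentring for the neighbours at their lowest, were chosen after seeing the data. Both, and recentring for the highest, left the counts of neighbours highest (0) and lowest (1) in ELKO replicate 1 as they were. Without counts, the number of reads behind each value is unknown. The study's quality-control listing gives read totals and RNA integrity for 5EL and 5ELKO libraries, not for EL and ELKO. In that listing some 5ELKO libraries have lower RNA integrity than any 5EL library. It also names more 5ELKO libraries than the sample labels give. ELKO replicate 1 is 1 library, so its Apoe level has no replicate.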
